A study of Mus musculus with 3 samples.

Results

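CEBPG and ATF4 binding was mapped by chromatin immunoprecipitation and sequencing (ChIP-seq), which lists the stretches of genome (peaks) recovered with an antibody. The cells were wild-type mouse embryonic fibroblasts of the C57BL/6 strain, isolated at E13.5, plated for 24 hours and then deprived of amino acids for 3 hours. Every library came from such deprived cells, so there was no fed condition. The CEBPG library was made with an antiserum to the C-terminus of CEBPG and the ATF4 library with a commercial ATF4 antibody, 1 library each. The library made with a GFP antibody was not analysed here. Peaks hold no expression values, so the cell type was not checked against marker genes.

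The regions described are the weak CEBPG peaks that lie at the ends of genes and have no ATF4 peak. They were chosen by measured values, namely a deposited peak score under 100, no base shared with an ATF4 peak, no ATF4 peak centre within 250 bp, and a peak centre within 1 kb of either end of a RefSeq protein-coding gene span (mm10). The rule found 837 of 25419 CEBPG peaks, at 879 of 21887 protein-coding genes. They are compared with the 216 CEBPG-only peaks of score 100 or more and the 47 CEBPG peaks with an ATF4 peak, all within 1 kb of a gene end.

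CEBPG is a C/EBP family basic leucine zipper (bZIP) protein. It has little activating ability of its own and pairs with other bZIP proteins, among them ATF4, the main effector of the response to amino acid shortage. C/EBP dimers favour palindromic sites, ATF and CREB dimers favour the cyclic AMP response element (CRE), and mixed C/EBP-ATF dimers favour a composite that joins part of a C/EBP site to part of a CRE. Those letters can be looked for under the weak peaks, because neither the sequence nor the direction of the gene entered the rule.

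Of the 837 weak peaks, 127 overlapped a listed promoter window, meaning the 300 bases from 250 before to 50 after a RefSeq start on GRCm38.p6, the mm10 build. The 16 composite cores (TGATGNAA) found inside these weak peaks were at 16 promoters, and the longer composite (TGATGNAAT) at 5 of them. The first 5 sequences are those 5 longer composites, and the last 3 are the other cores upstream of a start under the highest-scoring peaks. All run 5′ to 3′ on the strand of the gene, upstream of a listed RefSeq start, with the motif in capitals on whichever strand it matched.
Cnpy2, chr10:128322312-128322372, plus strand, peak score 90.42: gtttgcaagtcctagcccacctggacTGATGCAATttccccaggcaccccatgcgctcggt
D5Ertd579e, chr5:36696060-36696120, minus strand, peak score 88.07: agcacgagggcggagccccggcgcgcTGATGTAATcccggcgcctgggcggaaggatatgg
Creb5, chr6:53287249-53287302, plus strand, peak score 54.71: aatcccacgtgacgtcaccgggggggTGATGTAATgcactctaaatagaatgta
Uxt, chrX:20961991-20962051, minus strand, peak score 52.34: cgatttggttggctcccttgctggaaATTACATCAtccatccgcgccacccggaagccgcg
Echs1, chr7:140116551-140116611, minus strand, peak score 45.74: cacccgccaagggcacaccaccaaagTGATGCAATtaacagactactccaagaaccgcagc
Jdp2, chr12:85599357-85599415, plus strand, peak score 91.38: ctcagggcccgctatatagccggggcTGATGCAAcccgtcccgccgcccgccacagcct
Arid5a, chr1:36307543-36307602, plus strand, peak score 86.86: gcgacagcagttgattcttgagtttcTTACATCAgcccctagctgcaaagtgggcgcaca
Cdc42bpa, chr1:179960675-179960734, plus strand, peak score 74.11: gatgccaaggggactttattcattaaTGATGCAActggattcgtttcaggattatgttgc

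The composite under the Cnpy2 peak ended 113 bases before the listed start, and those of D5Ertd579e, Creb5, Uxt and Echs1 ended 65, 20, 39 and 156 bases before theirs. The core at Jdp2, which encodes a bZIP repressor of AP-1 and ATF targets, ended 26 bases before a start. In the Creb5 stretch, in lower case, a full CRE ended 38 bases before the start. Creb5 itself encodes a CREB family bZIP protein. A listed start can lie inside the gene. Measured to the outer start of the gene span, the peaks were centred downstream by 740.5 bp at Jdp2, 671 bp at Cdc42bpa, 633.5 bp at D5Ertd579e, 126 bp at Cnpy2 and 49.5 bp at Creb5. The composite lay 2.5 bp from the centre of the 190-bp Uxt peak, 3.5 bp from the centre of the Creb5 peak and 58 bp from that of Cnpy2. Uxt encodes a prefoldin-like chaperone, Echs1 a mitochondrial enoyl-CoA hydratase, Arid5a an AT-rich-interaction domain protein that binds RNA, and Cdc42bpa a kinase that acts downstream of CDC42. The sites of Arid5a and Uxt read on the strand opposite to the gene.

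The strict C/EBP palindrome (TTGCGCAA) lay inside 5 weak peaks, shown because each holds the whole 8-base site. Smad6 encodes an inhibitory SMAD, Ikzf5 an Ikaros-family zinc-finger protein, Man1b1 a mannosidase of the secretory pathway, Cep295 a centriolar protein and Commd1 a protein of copper handling and endosomal sorting. The peak over the Commd1 window is not within 1 kb of an outer end of Commd1, and it belongs to the set through Zrsr1, whose start lies 964 bp from its centre.
Smad6, chr9:64022065-64022124, minus strand, peak score 93.88: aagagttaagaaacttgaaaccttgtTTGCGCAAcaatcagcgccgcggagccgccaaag
Ikzf5, chr7:131410659-131410718, minus strand, peak score 61.03: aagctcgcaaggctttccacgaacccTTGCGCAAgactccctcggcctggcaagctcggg
Man1b1, chr2:25332678-25332737, plus strand, peak score 60.56: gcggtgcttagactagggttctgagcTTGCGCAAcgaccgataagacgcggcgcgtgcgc
Cep295, chr9:15357881-15357940, minus strand, peak score 53.85: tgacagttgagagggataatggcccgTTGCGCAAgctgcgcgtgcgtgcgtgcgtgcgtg
Commd1, chr11:22972952-22973011, minus strand, peak score 41.65: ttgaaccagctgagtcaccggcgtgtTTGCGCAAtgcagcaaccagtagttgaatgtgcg

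A full CRE (TGACGTCA) lay inside 3 weak peaks, at Creb5 and at these 2 promoters of general RNA machinery, the general transcription factor gene Gtf2f1 and the ribonuclease P and MRP subunit gene Pop4.
Gtf2f1, chr17:57011435-57011494, minus strand, peak score 92.79: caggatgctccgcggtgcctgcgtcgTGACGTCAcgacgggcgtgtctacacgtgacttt
Pop4, chr7:38271353-38271412, minus strand, peak score 40.72: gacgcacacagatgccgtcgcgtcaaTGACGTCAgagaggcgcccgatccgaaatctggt

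Counted over the whole 300-base windows, the C/EBP and composite letters were more frequent under weak peaks than in promoters at large. The composite core was in 19 of 127 windows under weak peaks (15.0%, exact 95% interval 9.25 to 22.4%), against 766 of all 21263 protein-coding promoter windows (3.60%). The palindrome was in 6 of 127 (4.72%, 1.75 to 10.0%) and in 0.221% of all windows (the Smad6 window, under 2 weak peaks, counts for each), and its relaxed form (TTGCNNAA, which includes the palindrome) in 24.4% and 10.2%. The CRE half-site (TGACG, also part of the CRE) was in 46.5% and 23.6%, and the CRE in 5.51% and 2.23%. The AP-1 site (TGANTCA), bound by FOS and JUN dimers, was in 9.45% (4.98 to 15.9%) and 6.99%. Both strands were searched, and these shares are given as a description with no test. The windows also differed in CpG content: 90 of 127 (70.9%) had a CpG ratio (observed over expected) above 0.6, against 47.6% of all windows. The part of base composition in the motif shares was not tested.

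The composite core lay mostly inside the weak peaks and seldom elsewhere in the same promoters. Strong CEBPG-only peaks were alike, with 1.029 cores per kb inside the peaks and 0.138 per kb outside. Within the 127 windows there were 16 cores in the 15.987 kb under the peaks (1.001 per kb), against 3 in the 22.113 kb outside them (0.136 per kb). The median distance to the peak centre, over the 16 cores inside the peaks alone, was 9.25 bp, and the 3 outside were 92.5, 148 and 328.5 bp away. The palindrome had 5 sites, all under a weak peak (0.313 per kb). The Smad6 site also lay in the window, but outside the bounds, of the neighbouring weak Smad6 peak. The CRE had 0.188 per kb under the weak peaks and 0.181 per kb outside, and AP-1 0.313 and 0.317 per kb. The CRE half-site had 3.13 and 1.76 per kb, and the relaxed C/EBP form 1.13 and 0.633 per kb. The GC box (GGGCGG), a site of SP family factors, was at 3.32 per kb under the peaks and 4.39 per kb outside. The core was in 14 of 73 windows (19.2%, 10.9 to 30.1%) under peaks with scores of 50 to 100 and in 5 of 54 (9.26%, 3.08 to 20.3%) under those of 40 to 50. These intervals overlap.

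Windows under the strong CEBPG-only peaks held the core in 20 of 89 cases (22.5%, 14.3 to 32.6%), a difference from weak peaks that did not pass (Fisher's exact test, two-sided, adjusted p = 0.585 over 31 comparisons of peak properties). The palindrome was in 4.72% of windows under weak peaks and 8.99% under strong ones, and the relaxed form in 24.4% and 26.97% (Fisher's exact test, adjusted p = 0.585 and 0.987). With these numbers, intervals of the weak and strong shares overlap widely, so a moderate difference could not be seen. Windows under CEBPG peaks with ATF4 held the core in 11 of 21 cases (52.4%, 29.8 to 74.3%). The ETS site (CCGGAAG), bound by the ETS family of promoter-associated factors, was in 20 of 127 windows under weak peaks (15.7%, 9.89 to 23.3%) and in 29 of 89 under strong ones (32.6%, 23.0 to 43.3%). That difference passed (Fisher's exact test, two-sided, adjusted p = 0.0251). All promoters had an ETS site in 11.6% of windows. Weak CEBPG-only peaks away from gene-span ends overlapped just 20 promoter windows, at starts inside genes. Windows under weak peaks at gene ends more often had a GC box (70 of 127 against 4 of 20) and a CpG ratio above 0.6 (90 of 127 against 7 of 20) than these (Fisher's exact test, two-sided, adjusted p = 0.0248 each). Position belongs to the rule and splits these sets into starts at gene ends and starts inside genes. The test therefore cannot separate the peaks from the kind of start. The composite core was in 19 of 127 and 5 of 20 windows, the relaxed C/EBP form in 31 of 127 and 8 of 20, and the palindrome in 6 of 127 and 1 of 20, differences that did not pass (Fisher's exact test, adjusted p = 0.672, 0.585 and 1).

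**Figure D1:**
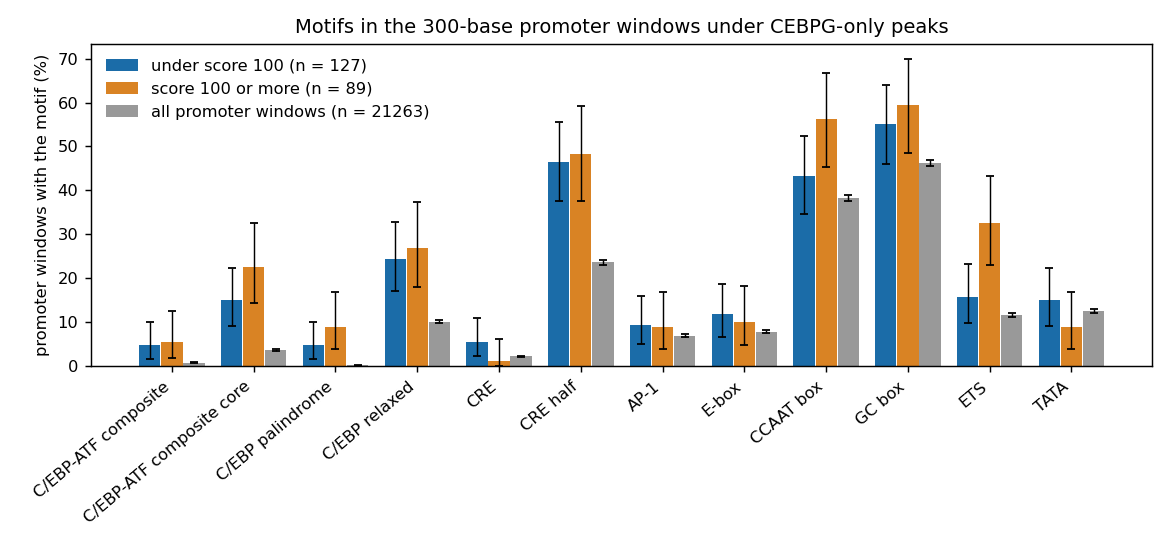
Share of 300-base promoter windows (percent, y axis) that hold each of 12 motifs, for windows under weak CEBPG-only peaks (blue, n = 127), under CEBPG-only peaks of score 100 or more (orange, n = 89) and for all protein-coding promoter windows (grey, n = 21263), with exact 95% intervals. The composite core stands at 15.0%, 22.5% and 3.60% in that order, and the ETS site at 15.7%, 32.6% and 11.6%.

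The weak peaks were narrow and mostly near the lowest score of the list. Their scores ran from 40.06 to 99.16 with a median of 47.36, and their widths from 59 to 337 bp with a median of 131 bp. Strong CEBPG-only peaks at gene ends had a median width of 381.5 bp, and weak CEBPG-only peaks elsewhere 128 bp. Score and width come from the same signal, so these values describe the choice of peaks. Among those just under the limit of 100 were the peaks at Ccp110 (99.09) and Fetub (98.16). Just over it, and so outside the set, were those at Spen (100.47), Cx3cr1 (100.64) and Slit2 (100.87).

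Of all 22377 CEBPG-only peaks under 100, 3.74% lay within 1 kb of a gene end, a zone that makes up 2.94% of the genome spanned by genes and peaks. The share was 3.20% (2.86 to 3.56%) at scores of 40 to 45, 3.83% at 50 to 60, 5.37% at 60 to 80 and 7.73% (5.77 to 10.1%) at 80 to 100. Among the strong CEBPG-only peaks it was 7.44% at 100 to 200 and 9.33% at 200 to 500. The lowest band was thus close to the share of that span itself, and the band just under 100 was close to the strong peaks. Position and score both belong to the rule, so no test is given.

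Which end of the gene a peak sat at was free to vary. The promoter table gave the strand of 17492 of the genes, and with it 426 of 675 weak peaks (63.1%, 59.3 to 66.8%) had a start as their nearest gene end and 249 had a 3′ end. For the other 162 the strand was not given. Start windows and 3′ end windows cover about the same length of genome, 33.3 Mb and 33.5 Mb. Strong CEBPG-only peaks sat at starts in 152 of 179 cases (84.9%, 78.8 to 89.8%), and CEBPG peaks with ATF4 in 36 of 39 (92.3%). The weak peaks were below both (Fisher's exact test, two-sided, adjusted p = 3.06e-07 and 0.000948). Within the weak set the share at starts was 58.1% (51.9 to 64.2%) at scores of 40 to 45, 59.1% at 45 to 50, 67.4% at 50 to 60 and at 60 to 80, and 85.4% (70.8 to 94.4%) at 80 to 100.

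**Figure D2:**
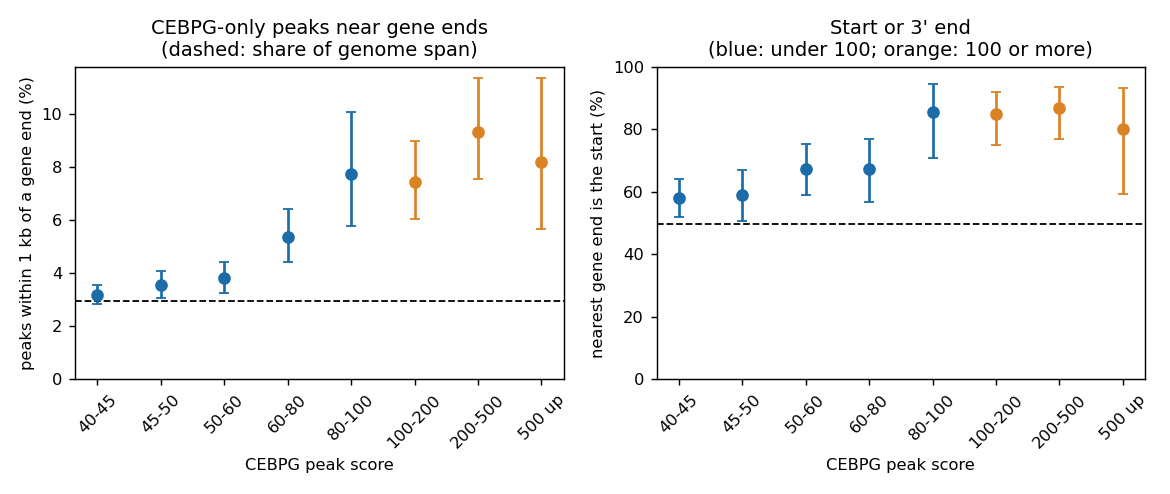
Left, percent of CEBPG-only peaks centred within 1 kb of a gene end (y axis) by peak score (x axis), with the dashed line at the 2.94% of the genome span that lies there. Right, percent of those of known strand whose nearest gene end is the start, with the dashed line at 49.8%, the start windows' part of all end windows. Points are shares with exact 95% intervals, blue for scores under 100 and orange for 100 or more, and they climb from 58.1% at scores of 40 to 45 to 85.4% at 80 to 100 on the right.

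Around the start the weak peaks were spread over the whole 2 kb window. Of the 426 nearest a start, 118 (27.7%, 23.5 to 32.2%) were centred within 250 bp of it, against 75 of 152 strong peaks (49.3%, 41.1 to 57.6%). Distance and score both belong to the rule, so these shares are a description. The fullest 250-bp bin of the weak peaks was the one just upstream of the start, with 71 peaks (16.7%), and the emptiest was 250 to 500 bp downstream with 34 (7.98%). Strong peaks had 31.6% in the bin just upstream. At 3′ ends, 80 of 249 weak peaks (32.1%, 26.4 to 38.3%) were within 250 bp. Even spreading over the 8 bins would put 12.5% in each. Gene spans can hold several starts. Measured to any listed start, a choice made after seeing the data, the shares within 250 bp were 28.9% and 46.7%.

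**Figure D3:**
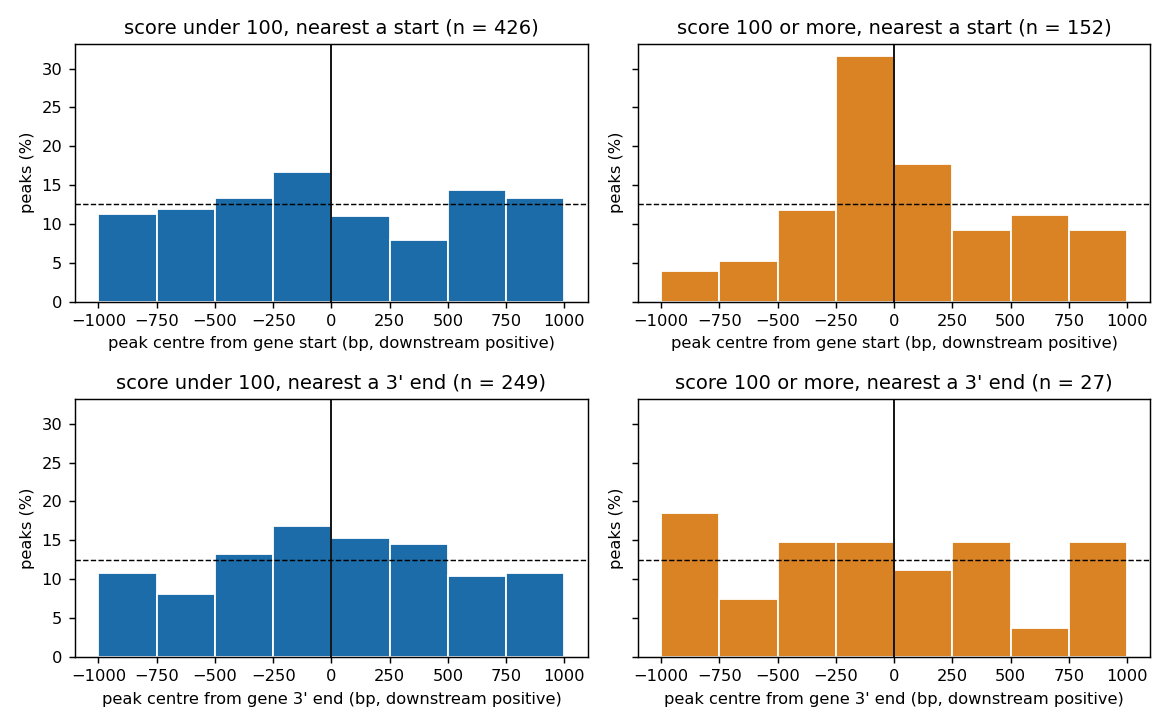
Percent of peaks (y axis) per 250-bp bin of distance from the gene start (top row) or 3′ end (bottom row), downstream positive, for weak CEBPG-only peaks (left, blue) and those of score 100 or more (right, orange). The dashed line marks an even 12.5% per bin, and the bin just upstream of the start holds 16.7% of the weak and 31.6% of the strong peaks.

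Several of the highest-scoring weak peaks lay close to 2 neighbouring genes, and others well inside a gene. The peak at Ccp110, a centriole capping protein, was on chromosome 7 from 118712340 to 118712543, 73.5 bp upstream of the start. The promoter shared by Oxnad1 and Dph3, the diphthamide synthesis gene, on chromosome 14 held another (score 97.45, 64 bp upstream of the Dph3 start). The peak between Lrrc14 and Recql4, a DNA helicase, scored 96.89, and that inside Cep120, a centriolar protein, 98.01. Peaks centred more than 500 bp inside the gene were those of Fetub (98.16), Zfp639 (97.01), Alg10b, a glycosylation enzyme (96.31), Cfl2, a cofilin (95.5), and Litaf (94.48). A further one was 230 bp upstream of AW209491 (95.89). In all, 90 of 837 weak peaks (10.8%) lay within 1 kb of more than 1 gene, against 25 of 216 strong ones (11.6%; Fisher's exact test, adjusted p = 0.987).

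Set against all protein-coding genes, of which 4.02% carried a weak peak (879 of 21887), gene lists fell on either side. The 39 lists ranged from 0.725% to 14.3%, and 29 were above 4.02%. That count depends on list size, since 1 gene puts a list of 24 above the share (4.17%). Some genes also stand in more than 1 list. No set test was run, and most intervals of single lists include that share. The exceptions above it were cytosolic ribosomal proteins (9 of 87 genes, 10.3%, 4.84 to 18.7%), histones (8 of 82, 9.76%, 4.31 to 18.3%) and RNA polymerase II, general factor and Mediator genes (5 of 38, 13.2%, 4.41 to 28.1%). With the distance set to 500 bp, where the share of all genes was 2.12%, histones stood at 2.44% and the RNA polymerase II list at 2.63%, against 8.05% of ribosomal protein genes. Counting the nearest gene of each peak alone put the RNA polymerase II list at 7.89%, against 3.63% of all genes. A score limit of 50 put histones at 3.66%, against 2.49% of all genes. Below the share of all genes were odorant receptors (31 of 1110, 2.79%, 1.91 to 3.94%) and ion channels (1 of 138, 0.725%, 0.0183 to 3.97%). Per length of sequence within 1 kb of their ends, odorant receptors had 9.56 weak peaks per Mb, near the 10.6 of all protein-coding genes. Ion channels had 1.81 per Mb, from 1 peak.

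**Figure D4:**
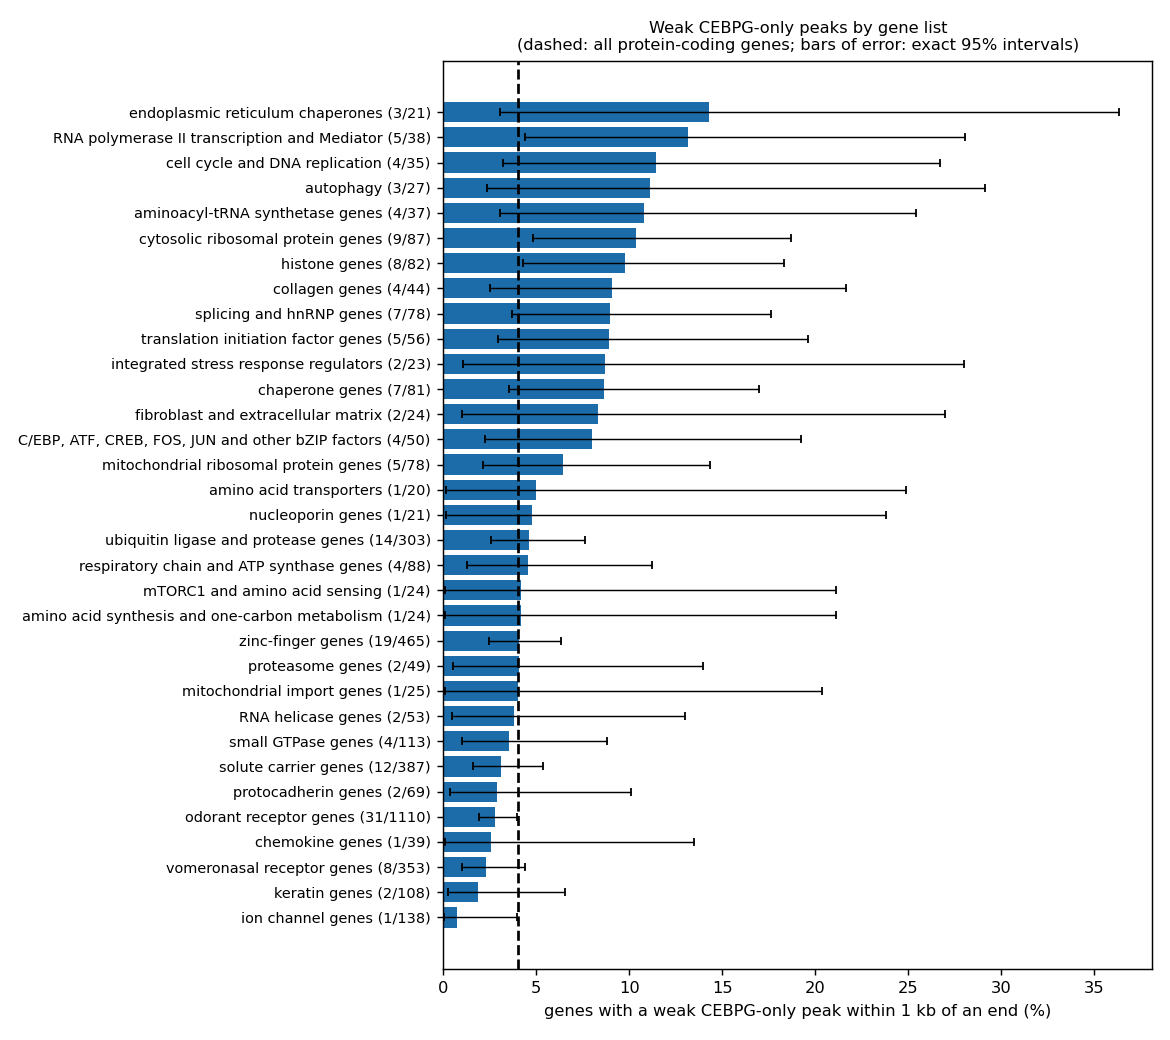
Percent of genes with a weak CEBPG-only peak within 1 kb of an end (x axis) for each list or family of 20 or more genes, with the counts beside the names and exact 95% intervals as lines. The dashed line is the 4.02% of all protein-coding genes, with ribosomal protein genes at 10.3% and odorant receptors at 2.79%. Shares are per gene and not per length of sequence.

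Genes that make protein and RNA carried weak peaks at several points of the process. Among ribosomal proteins the highest score was at Rpl9 (72.6), in the promoter it shares with the lipoic acid synthase gene Lias, followed by Rpl10a (51.5) and Rpl23 (50.82). At starts, 7 of 66 ribosomal genes of known strand had a weak peak, against 2.60% of all genes of known strand (454 of 17492), and none had one at its 3′ end, where the share of all genes was 1.51%. Mitochondrial ribosomal proteins had 5 of 78 (6.41%, 2.11 to 14.3%), led by Mrps21 (82.96), Mrpl54 (79.85) and Mrpl52 (55.86). Translation initiation factors had 5 of 56 (8.93%, 2.96 to 19.6%), with the helicase Eif4a1 (79.02), Eif1ad (65.07) and Eif4a2 (50.43, at its 3′ end). The splicing list had 7 of 78 (8.97%, 3.68 to 17.6%). Among them were Srsf2 (93.81), an SR splicing factor whose start lay 517 bp upstream of the peak centre, Lsm10 (63.46) and Lsm4 (49.49). The intervals of these lists all include 4.02%, the share of all genes. With the distance set to 500 bp, splicing genes stood at 2.56% and initiation factors at 5.36%, against 2.12% of all genes. Counting the nearest gene of each peak alone put them at 8.97% and 5.36%, against 3.63% of all genes. At Gtf2f1, the CRE-bearing peak scored 92.79, while Med14 (50.11) and Gtf2h3 (43.84) were lower. The Gtf2h3 peak also counts for the initiation factor gene Eif2b1.

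Lists of the amino acid response each held 1 to 4 genes with a weak peak. Every one of their intervals includes 4.02%, the share of all genes. Aminoacyl-tRNA synthetases, which charge transfer RNAs, had them at 4 of 37 genes (10.8%, 3.03 to 25.4%). Among these were Iars (53.7, 473.5 bp inside the start), Sars (52.96, centred 1 bp inside the 3′ end) and Eprs (42.41). Amino acid synthesis and one-carbon genes had 1 of 24 (4.17%), Phgdh, the first enzyme of serine synthesis, with a peak on chromosome 3 from 98339137 to 98339356 (score 91.22, 722.5 bp downstream of the start). Amino acid transporters had 1 of 20 (5%), Slc36a4 (43.93, at the 3′ end). Integrated stress response regulators had 2 of 23 (8.70%). Ddit3, encoding the C/EBP protein CHOP, had a weak peak of 57.15 centred 657.5 bp inside its start, beside a stronger CEBPG-only peak of 351.41. That weak peak was nearer to Mbd6, 581.5 bp upstream of the Mbd6 start. Ddit4 had a weak peak of 40.41 beyond its 3′ end. Counting the nearest gene of each peak alone put this list at 4.35%, against 3.63% of all genes. The list of mTORC1 and amino acid sensing genes had 1 of 24 (4.17%), Rptor (41.58). With the distance set to 500 bp, the amino acid synthesis and stress response lists held no gene with a weak peak. Aminoacyl-tRNA synthetases then stood at 8.11%, transporters at 5% and mTORC1 genes at 4.17%, against 2.12% of all genes.

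The bZIP factor genes had weak peaks at 4 of 50 (8%, exact 95% interval 2.22 to 19.2%), against 4.02% of all genes. The 4 were Jdp2 (91.38), the clock-linked factor Tef (80.07), Creb5 (54.71) and the FOS family gene Fosl1 (43.64). Cebpg, Cebpb and Atf3 had no weak peak but 1 CEBPG-only peak each of 402.96, 845.58 and 725.28. At Atf4, Slc7a5, Slc3a2, Nfe2l2, Myc, Jun and Fos no CEBPG peak of any score was centred within 1 kb of an end. Among stress and clearance genes, endoplasmic reticulum chaperones had 3 of 21 (14.3%, 3.05 to 36.3%), with Herpud1 (61.53, beyond the 3′ end), the co-chaperone Dnajb9 (53) and the oxidase Ero1a (43.09). Autophagy genes had 3 of 27, with the E1-like enzyme Atg7 (70.85, 54 bp from the start), the receptor Nbr1 (54.15) and Wipi2 (53.63). Chaperones by family name had 7 of 81 (8.64%), led by Hspa14 (53.63).

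Growth, chromatin and matrix lists gave small counts, to be set against the 4.02% of all genes. Cell cycle and DNA replication genes had 4 of 35 (11.4%), Mcm3 (52.96), Cdk4 (52.54), Rfc4 (50.43) and Rfc3 (43.83). The Rfc4 peak is the same as that given for Eif4a2, whose 3′ end was nearer (97.5 bp against 281.5 bp). Counting the nearest gene of each peak alone put this list at 8.57%, against 3.63% of all genes. Histone genes were led by H4c8 (87.94), H1f8 (85.99) and a single peak of 80.57 shared by the neighbours H2bc9 and H3c7. Histone genes are short and clustered, so a peak can count for more than 1. Collagens had 4 of 44, with Col22a1 (58.59), Col4a3 (45.21) and Col4a4 (44.55), and the fibroblast list 2 of 24, Thbs1 (52.54) and Acta2 (45.94). Of the secreted inflammatory factors, 1 of 18 had weak peaks. Il6, whose promoter is a classical C/EBP target, had 2 of them, at 77.33 and 41.04, centred 264.5 bp and 98 bp upstream of its start.

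Large families near the share of all genes were the zinc-finger genes (19 of 465, 4.09%, led by Zfp639 and Zfp617 at 88.88), the ubiquitin ligase and protease genes (14 of 303, 4.62%, led by Fbxo41 at 79.97) and the solute carriers (12 of 387, 3.10%, led by the phosphate transporter Slc20a1 at 79.94). Respiratory chain genes had 4 of 88 (4.55%), proteasome genes 2 of 49 and RNA helicases 2 of 53. Small GTPases had 4 of 113. Marker lists of other cell types stood with hepatocyte genes at 2 of 16 (Cyp7a1 52.68, Hnf4a 44.18), neuronal genes at 1 of 16 (Tubb3 60.34) and macrophage and lymphoid genes at 1 of 16 (Ms4a1 41.76). Vomeronasal receptors had 8 of 353 (2.27%, led by Vmn1r61 at 71.04). The name-based keratin family had 2 of 108, the keratin-associated protein genes Krtap3-1 (70.28) and Krtap4-16 (42.46). One gene each was found among glutathione and antioxidant genes (Prdx6, 1 of 18), mitochondrial chaperones (Hspe1, 1 of 14), import genes (Timm9, 1 of 25), nucleoporins (Nup188, 1 of 21) and chemokines (Cxcl15, 1 of 39), and protocadherins had 2 of 69.

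Short genes have less sequence within 1 kb of their ends, so peaks were also counted per length. The lists were also pooled into a machinery and a receptor and channel group after the list shares were seen. The 13 lists of basic cell machinery, from ribosomes to DNA replication, had weak peaks at 56 of 726 genes (7.71%, 5.88 to 9.90%), or 19.8 peaks per Mb of sequence near their ends. The odorant and vomeronasal receptor, ion channel, keratin, protocadherin and chemokine families had them at 45 of 1817 genes (2.48%, 1.81 to 3.30%), or 8.10 per Mb. All protein-coding genes had 10.6 per Mb, and weak CEBPG-only peaks over the whole genome span 8.31 per Mb. At starts, 5.18% of the machinery genes of known strand had a weak peak and 1.28% of the receptor and channel group, against 2.60% of all genes. At 3′ ends the shares were 2.34% and 1.28%, against 1.51% of all genes. Pooling followed the values, so these differences carry no test.

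Most genes with a weak peak had no other CEBPG peak close by, but the share that did was above that of all genes. Within 5 kb of an end, 177 of 879 (20.1%, 17.5 to 22.9%) had a CEBPG peak outside the weak set, against 12.4% of all protein-coding genes. A CEBPG peak of 100 or more was near 63 of them (7.17%, 5.55 to 9.08%), against 3.31% of all genes. An ATF4 peak was near 30 (3.41%, 2.31 to 4.84%), against 2.02% of all genes, and those 30 included Arid5a, Enc1, Slc20a1, Lsm10, Herpud1 and Iars. The rule kept ATF4 peaks at least 250 bp from a weak peak's centre but not out of the 5 kb. The median distance to the nearest ATF4 peak centre was 307 kb from a weak peak and 354 kb from a strong CEBPG-only peak at a gene end. The ATF4 list held 2642 peaks in all.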

How the data were processed

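ChIP-seq libraries for CEBPG and ATF4 (1 each, single-end reads of 36 bp) are described by the peak lists the authors deposited. Per the submitters' processing notes, the tools were Trimmomatic, BWA, MACS 1.4.2 and HOMER on mm10. Their settings and the background library are not stated there. Each deposited peak carries a score in its name, which is the authors' own value and was used only to rank and filter peaks within a list. The files hold no read counts, so depth is unknown, and with 1 library per antibody every p-value and interval describes peaks of these libraries, not the spread between cultures.

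Positions are 1-based. Gene spans (21887 protein-coding genes of the nuclear chromosomes) and promoter windows (21263) came from RefSeq tables of GRCm38.p6. The promoter table gave a strand for 17492 genes and none for 4395, including all of chromosome 18. A peak was assigned to every gene with an end within 1 kb of its centre, and start or 3′ end was read from the nearest one. The planned search of whole peaks for 12 motifs was replaced by the 300-base windows, taking for each peak the window it overlapped most, since no genome sequence was used. The 127 weak peaks fell on 122 windows. Intervals are exact (Clopper-Pearson, 95%) and cover counting error only. Shares were compared by Fisher's exact test, two-sided, adjusted over 31 comparisons (Benjamini-Hochberg). The 2 of these on distance within the window are given without their test, since the rule used distance. Gene lists (16) and name-based families (23) are described by counts. All 384 hand-listed names matched. The peaks, lists and motifs were chosen with earlier results of these data known. Named genes were those at the 12 highest-scoring weak peaks, up to 3 per list, up to 8 with a composite in the peak or with several weak peaks, and 11 genes given whatever their values, and some of these are not reported here. Further motif-bearing genes shown with sequence, all 4 members of some small lists, and genes near an ATF4 peak were named after their values were seen. Python 3.11.15 with pandas 2.3.3 and SciPy 1.17.1 was used. The assignment to starts was tested on simulated peaks.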

Additional observations from a re-analysis of the deposited data

How the results depend on the processing

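With 1 library per antibody no replicate could be left out. No paired analysis was possible because there is 1 library per antibody, so fewer than 2 replicate numbers are shared. The size of the set followed its limits. A score limit of 50 left 508 peaks at 546 genes, a distance of 500 bp left 442 peaks at 464 genes, and 2 kb gave 1479 peaks at 1551 genes. Requiring no ATF4 centre within 5 kb kept 824 peaks. Within 20 kb of an end in place of 5 kb, 46.1% of the genes with a weak peak had another CEBPG peak, 13.1% one of 100 or more and 7.05% an ATF4 peak. The shares over all protein-coding genes were 34.8%, 8.48% and 5.46% in that order. The share of weak peaks at starts stayed between 58.4% and 63.7% under 5 alternatives and below that of strong peaks in each. The composite core and palindrome did not pass against strong peaks in any of 4 alternatives each. Between 27 and 28 of the 39 lists were above the share of all genes under the 5 alternatives. Of 195 recomputed list shares, 28 left the exact interval of the main share. The share of all genes itself moved, from 4.02% to 2.49% at a score limit of 50, 2.12% at 500 bp and 7.09% at 2 kb. A list can thus leave its interval without a change in its standing against all genes. Under a score limit of 50 the pooled machinery and receptor groups stood at 4.55% and 1.71%, against 2.49% of all genes. Short gene lists cannot show differences of a few percentage points. The scores of both libraries depend on a depth that is unknown.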

Other observations

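Some weak peaks lay side by side. A CEBPG peak with an edge within 100 bp flanked 66 of the 837 weak peaks at gene ends (7.89%, exact 95% interval 6.15 to 9.92%), 16 of 216 strong CEBPG-only peaks at gene ends (7.41%, 4.29 to 11.8%) and 724 of 21540 weak CEBPG-only peaks elsewhere (3.36%, 3.12 to 3.61%). These shares were looked at after seeing the data and were not tested. At several starts the neighbours were both weak and a few bases apart. Smad6 had scores of 50.74 and 93.88 with 9 bp between the peaks, and Fetub 98.16 and 45.25 with 15 bp between them. The 2 peaks upstream of Il6 were also 15 bp apart, and the gene of its receptor, Il6ra, had a pair of 60.82 and 56.01 with an 8-bp gap. Il17ra, another cytokine receptor gene, had 3 weak peaks near 1 end (41.99, 41.08 and 42.46). The liver-secreted ferroxidase gene Cp had 65.29 and 85.25, 32 bp apart, and Enc1 63.21 and 84.97, 13 bp apart. Whether such a pair is 1 wider site listed as 2 cannot be told from peak lists without read coverage, and a rule on the score of single peaks counts each part on its own. In all, 47 genes had more than 1 weak peak. Pairs more than 100 bp apart included Ssu72, with 68.69 near its start and 74.12 beyond its 3′ end, and Etf1, the translation termination factor gene, with 88.09 and 48.79.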
